A study of Mus musculus with 3 samples.

Results

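Interferon-stimulated genes are the genes a cell switches on when interferon binds its receptors, and 39 of them were followed here in hepatocyte preparations. The set was defined by name: spots that the array assigns to 6 Oas, 3 Ifit and 2 Mx genes, 8 GTPases of the GBP and IRG families, 5 transcription factors, 4 nucleic acid sensors and 11 further effectors were taken, which gave 61 spots of 52 probes for all 39 genes, out of 31803 gene names. Hepatocytes had been released with collagenase from livers of male wild-type C57BL/6 mice, fasted overnight, that were 6 weeks old at the start, spent 16 weeks on their diet and were 22 weeks old at harvest. No injection is listed for the mice on standard diet. The other mice ate a high-fat diet and, from week 10 onwards, were injected intraperitoneally with control IgG (HFD-IgG) or with an antibody blocking VLA-4, an integrin by which leukocytes bind endothelium (anti-VLA-4), 2 times a week for 6 weeks. Each group's RNA was labelled with Cy3 and hybridised to a single array, so the study has 3 arrays and no replicate. How many mice stand behind an array is not given in the sources used here. One slide carried the standard-diet and HFD-IgG arrays and a different slide the anti-VLA-4 array.

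Type I interferons (interferon alpha and beta) bind a receptor made of Ifnar1 and Ifnar2 and activate a complex that holds STAT2 and IRF9 and binds a DNA element called the ISRE in the promoters of antiviral genes such as the Oas, Ifit and Mx families. Interferon gamma, made mainly by T and NK cells, acts through a different element, the GAS, and is the stronger inducer of the GBP and IRG families, large GTPases that attack the vacuoles of intracellular microbes. The families overlap in their inducers, so the split is a matter of degree. In liver, hepatocytes, Kupffer cells and endothelial cells can all respond to interferon.

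The promoters show which of these elements the members share, and windows of genes whose values are described in detail are printed here. RefSeq promoters of build GRCm38.p6, from 250 bases before to 50 bases after the gene start, were at hand for 29 of the 39 members. The ISRE was searched as GAAA, 2 bases of any kind and GAAA again on both strands and the GAS as TTCNNNGAA, which reads the same on either strand, and overlapping matches were kept. An ISRE match lay in the promoter of 16 of 29 members (55.2%), against 3.99% of 27025 genes, and a GAS match in 8 of 29 (27.6%), against 9.55%. By family, an ISRE match was present in 5 of 8 type I-type genes (Oas, Ifit, Mx) and 5 of 6 GTPases, and a GAS match in 2 of 8 and 2 of 6. Each window below is read on the gene's strand, ends before the gene start, and carries its ISRE and GAS matches in capitals.
Oas1a (chr5:120907526-120907557, minus strand): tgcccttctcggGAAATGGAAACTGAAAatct
Oas1g (chr5:120887614-120887643, minus strand): tgcccttctcggGAAATGGAAACTGAAAat
Ifit1 (chr19:34640773-34640825, plus strand): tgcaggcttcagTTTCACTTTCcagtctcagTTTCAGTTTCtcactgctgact
Ifit3 (chr19:34583361-34583428, plus strand): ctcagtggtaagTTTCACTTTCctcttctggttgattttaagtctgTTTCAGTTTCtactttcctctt
Isg15 (chr4:156200863-156200908, minus strand): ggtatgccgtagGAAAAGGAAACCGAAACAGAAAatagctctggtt
Gbp2 (chr3:142620592-142620625, plus strand): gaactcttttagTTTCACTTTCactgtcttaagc
Igtp (chr11:58199499-58199543, plus strand): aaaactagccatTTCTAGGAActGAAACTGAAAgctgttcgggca
Irgm2 (chr11:58214890-58214934, plus strand): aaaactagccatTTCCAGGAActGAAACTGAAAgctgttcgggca
Irf1 (chr11:53769912-53769944, plus strand): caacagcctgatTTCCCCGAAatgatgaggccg
Stat2 (chr10:128270264-128270297, plus strand): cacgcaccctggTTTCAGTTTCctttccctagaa
The Oas1a and Oas1g windows were identical over the 30 bases they share. Those of Igtp and Irgm2 differed at 1 of 45 bases and hold a GAS match just before the ISRE match. The Irf1 promoter had a GAS match and no ISRE match. A match is a stretch of letters and not a measured binding site.

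Levels are given as the processed spot signal divided by the 75th percentile of the array's non-control spots, so that a level of 1 is that percentile. Well above background were 57.3% to 66.5% of the non-control spots of an array, and no member spot was flagged or saturated. All 39 members were well above background on HFD-IgG, 37 on anti-VLA-4 (not Oas1g and Oas3) and 36 on standard diet (not Oas1g, Oas3 and Ifit2). Where 1 of the compared arrays was not well above background, it entered at that array's lowest level well above background, or at its own level if higher. The fold is then written as at least and called a lower bound. It is no firm limit, since some dim probes lay above that lowest level. On standard diet the lowest level was 0.0257, and Gbp5, a gene outside the 39, was not well above background at 0.0348. Such bounds also changed with the scaling. The scanner's own error of a log2 difference between arrays was 0.20 to 0.26 for most members and is printed for members where it was larger. For genes outside the 39 it is printed in some cases only. For HFD-IgG over standard diet it was 0.34 for Socs1, 0.39 for Cd274 and 0.45 for Gbp4. It covers error within an array only. No difference has a replicate check, and no p-value is given. Genes are counted when they differ by 2-fold or more. Gene names are those of the array design: the probe called Gbp6 carries an accession that RefSeq now assigns to Gbp7, and Oas, Ifit, Gbp and Irgm genes have near-identical relatives that a probe may not separate.

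On the high-fat diet with IgG, 38 of the 39 interferon-stimulated genes had a higher level than on the standard diet, and 23 were at least 2-fold higher, from Ifi44 (13.6-fold) down to Zbp1 (2.11-fold). Stat2 was the exception, at 1.07-fold lower, and with normexp background correction Bst2, Ddx58, Ifi35, Iigp1 and Irf1 also lay below 0. Diet and IgG injection both differ between these arrays and cannot be told apart. Of 21961 genes on this pair of arrays, 53.1% had a higher level on HFD-IgG, beside 38 of the 39 members. Counted at 2-fold or more, 20.4% of these genes were higher and 2.42% lower, beside 23 and 0 of the 39 members. Quantile scaling turned the split over all genes to 11% higher and 12.2% lower, while it left 23 members higher. Among genes at or above the 75th percentile on either array, the bright genes, 4.27% of 8641 were higher and 1.93% lower, beside 13 and 0 of 26 members. The median log2 difference of the members was 1.16, and that of all genes 0.04. Normexp correction raised the median of all genes to 0.48. The member median was then 1.05 and 20 of 39 passed 2-fold, without Isg15, Irgm2, Parp14, Mx2, Usp18 and Zbp1 and with Mx1, Oas3 and Cmpk2, a share nearer to the 40.7% of all genes that did, while among bright genes 7 of 26 members and 2.96% of genes passed.

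Markers of other liver cells differed in the same direction. The summed level of 10 hepatocyte markers was 3500 on standard diet, 3280 on HFD-IgG and 3230 on anti-VLA-4, so the label's cell type was present throughout. A sum is carried by its brightest probes, and the median log2 difference of the 10 was -0.45 for HFD-IgG over standard diet, with 6 lower and Cps1 2.20-fold lower. The 12 Kupffer cell markers had summed levels of 10.5, 68.6 and 51.2, and all 12 were 2-fold or more higher on HFD-IgG than on standard diet, with Timd4 and Cd68 not above background on the latter. Of 8 sinusoidal endothelial markers 6 were higher (sums 14.7, 53.4 and 32.6), and of 8 stellate cell markers 7 (sums 1.71, 18.7 and 9.26). Of the stellate markers only Colec11 and Dcn were above background on standard diet, so the folds of the other 6 are lower bounds. Dcn alone had a level of 1.39 there. The part of these cells in the levels of the interferon-stimulated genes was not tested. More cells of a type and more RNA per cell cannot be told apart in such bulk RNA.

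Lymphocyte and dendritic cell markers were mostly dim. Cd8a, Gzmb and Klrb1c of T and NK cells and Xcr1 of dendritic cells were above background on no array, and none of the 4 B cell markers was on standard diet. Of 6 T and NK cell markers compared between HFD-IgG and standard diet, Cd3g and Ncr1 were at least 4.81-fold and at least 2.49-fold higher and Cd4 was 2.30-fold lower. The scanner error in log2 was 1.42 for Cd3g and 1.33 for Ncr1, and the Ncr1 difference of 1.31 lay within it. The summed level of the 10 markers, 28.9, 14.3 and 19.4, was mostly that of the Cd4 probe, 24.9, 10.8 and 15.6. Itgax and Clec9a of conventional dendritic cells were at least 8.58-fold and at least 2.08-fold higher, 2 of 5 compared. Their scanner errors were 1.45 and 1.34 in log2, and the Clec9a difference of 1.05 lay within its error. Of 6 plasmacytoid dendritic cell markers (sums 112, 119 and 115), Irf8 alone was higher, and Irf8 and Bst2 on that list are themselves among the 39. These sums were mostly those of the Siglech probe, 74.3, 75.2 and 73.6, and of Bst2, 28.3, 34.0 and 31.0. Whether the Siglech probe reports these cells was not tested.

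**Figure D1:**
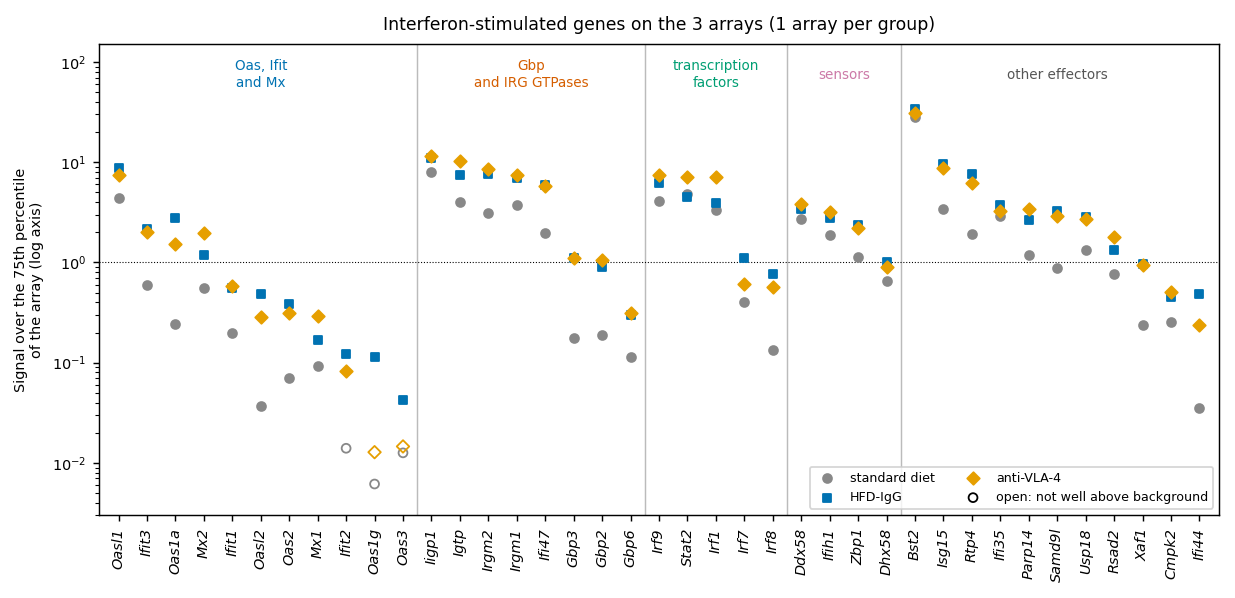
Level of each of the 39 members on the standard-diet, HFD-IgG and anti-VLA-4 arrays, on a log axis, grouped by role and ordered by mean level. Each point is 1 array, open points were not well above background, and the dotted line is the array's 75th percentile. For 38 of the 39 genes the HFD-IgG point lies above the standard-diet point, a direction that turned for 5 of them with normexp correction.

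The Oas genes encode enzymes that make short oligoadenylates and so activate RNase L, which cuts viral and cellular RNA. Oas1a had a level of 0.242 on standard diet, 2.79 on HFD-IgG and 1.52 on anti-VLA-4. It was thus lowest on the standard diet and highest with IgG, 11.5-fold higher on HFD-IgG than on standard diet and 1.83-fold lower on anti-VLA-4 than on HFD-IgG. The first of these folds was 6.14 with normexp correction. Its second probe gave the same order, at 0.0339, 0.501 and 0.234, of which the first was not well above background. The first probe lies at chr5:121346735-121346794 on build mm9, the build of the array design.

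Oasl2, an Oas-like gene, ran in the same order as Oas1a, with levels of 0.0371 on standard diet, 0.484 on HFD-IgG and 0.288 on anti-VLA-4. It was 13.0-fold higher on HFD-IgG than on standard diet (scanner error 0.34 in log2) and 7.74-fold higher on anti-VLA-4 than on standard diet, which became 5.06 and 3.74 with normexp correction. For Oas2 the levels were 0.0700, 0.386 and 0.316 in that order of arrays, and it was 5.52-fold higher on HFD-IgG than on standard diet. Oasl1, known in mice to restrain the translation of Irf7, had levels of 4.42, 8.79 and 7.40 and lay just under the limit at 1.99-fold higher on HFD-IgG, with 1.24 under normexp correction and 2.12 under quantile scaling.

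Oas1g, a close relative of Oas1a with the same ISRE window but without the GAS match that the Oas1a promoter has elsewhere, was measured above background on HFD-IgG only, at 0.114. That was at least 4.42-fold above standard diet (scanner error 1.45 in log2) and at least 5.06-fold above anti-VLA-4 (error 0.59), bounds that were 2.21 for the first with quantile scaling and 1.48 for the second with normexp correction, and its other probe was above background on no array. Oas3 was likewise above background on HFD-IgG only, at 0.0426, at least 1.66-fold above standard diet (0.73 in log2, within its scanner error of 0.75) and at least 1.90-fold above anti-VLA-4 (error 0.61), and with normexp correction the first was 4.17. All 6 Oas genes were highest on HFD-IgG, with a median log2 difference of 2.30 for HFD-IgG over standard diet and -0.81 for anti-VLA-4 over HFD-IgG, except that Oasl1 came to 0.00 with normexp correction and Oas3 to 0.00 with quantile scaling.

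Of the Ifit genes, Ifit1 encodes a protein that binds viral RNA lacking the host's cap marks. Ifit3 had levels of 0.601 on standard diet, 2.14 on HFD-IgG and 2.0 on anti-VLA-4, and was 3.56-fold higher on HFD-IgG than on standard diet. For Ifit1 they were 0.196, 0.550 and 0.588, with 2.80-fold between HFD-IgG and standard diet. Ifit2, not above background on standard diet, had levels of 0.122 on HFD-IgG and 0.0826 on anti-VLA-4, at least 4.76-fold and at least 3.21-fold above it (scanner error 0.72 in log2), the first of which was 2.42 with quantile scaling. Ifit1 and Ifit3 were 1.07-fold apart between the high-fat diet arrays, within the scanner error.

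Mx1 and Mx2 encode dynamin-like GTPases that trap viral components, and C57BL/6 mice are known to carry a defective Mx1 allele. Mx1 had levels of 0.0924 on standard diet, 0.169 on HFD-IgG and 0.292 on anti-VLA-4. For Mx2 the levels were 0.555, 1.19 and 1.96. Both were highest on anti-VLA-4, 3.16-fold (Mx1) and 3.53-fold (Mx2) above standard diet. Mx2 was 2.15-fold higher on HFD-IgG than on standard diet and 1.64-fold higher on anti-VLA-4 than on HFD-IgG, of which the first was 1.79 with normexp correction. For Mx1 those folds were 1.83 and 1.72, and they depended on the setting. Its fold of HFD-IgG over standard diet was 1.16 with quantile scaling and 3.20 with normexp correction. Its log2 difference of anti-VLA-4 over HFD-IgG, 0.78, was 1.14 with quantile scaling, past 2-fold, and -0.11 with normexp correction, while that of Mx2 was 0.70 and 0.55.

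Among the GTPases of the GBP family, Gbp3 had levels of 0.176 on standard diet, 1.12 on HFD-IgG and 1.11 on anti-VLA-4. For Gbp2, with 1 ISRE match in its window, they were 0.190, 0.909 and 1.07. Gbp3 was 6.37-fold and Gbp2 4.77-fold higher on HFD-IgG than on standard diet. The probe called Gbp6 had levels of 0.113, 0.296 and 0.310, with 2.61-fold between HFD-IgG and standard diet (1.92 with quantile scaling), and a further probe of that name was above background on no array. These 3 GBP genes stood at about the same level on both high-fat diet arrays, at most 1.18-fold apart.

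The IRG proteins include Irgm1, Irgm2 and Igtp, which guard host membranes, and Iigp1, an effector that coats microbial vacuoles. Ifi47, also of this family, had levels of 1.96 on standard diet, 5.91 on HFD-IgG and 5.83 on anti-VLA-4, and was 3.01-fold higher on HFD-IgG than on standard diet. For Irgm2 they were 3.14, 7.64 and 8.53, with folds over standard diet of 2.43 on HFD-IgG (1.64 with normexp correction) and 2.72 on anti-VLA-4. Igtp was measured by 10 spots of its probe, which ranged from 3.77 to 4.23 on standard diet, 6.80 to 7.66 on HFD-IgG and 9.70 to 11.3 on anti-VLA-4. These spots did not overlap between arrays, but they share an array's RNA and are no replicates of a group. Igtp was 1.85-fold higher on HFD-IgG than on standard diet and 1.41-fold higher on anti-VLA-4 than on HFD-IgG, which made 2.61-fold on anti-VLA-4 over standard diet. With normexp correction the first was 1.22 and the last 1.97.

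Irgm1 had levels of 3.77, 6.98 and 7.46 on standard diet, HFD-IgG and anti-VLA-4, a difference of 1.85-fold between the first pair. For Iigp1 they were 8.02, 10.9 and 11.5, with 1.36-fold between HFD-IgG and standard diet, the smallest such difference of the 8 GTPases. That log2 difference of Iigp1 was 0.44 and turned to -0.11 with normexp correction.

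The transcription factors divided into those highest on HFD-IgG (Irf7, Irf8) and those highest on anti-VLA-4 (Irf1, Irf9, Stat2). Their probes divided in the same way by the share of A or G bases. It was 58.3% for Irf7 and 63.3% for Irf8, against 45.0% for Irf1 and Irf9 and 48.3% for Stat2. Over all genes, differences between the high-fat diet arrays went with that share, as described below. Its part in this division was not tested. Irf7, the factor that amplifies type I interferon production, had levels of 0.403 on standard diet, 1.11 on HFD-IgG and 0.609 on anti-VLA-4. It was 2.74-fold higher on HFD-IgG than on standard diet and 1.82-fold lower on anti-VLA-4 than on HFD-IgG. Irf8, a factor of macrophages and dendritic cells, had levels of 0.133, 0.764 and 0.565. On HFD-IgG and anti-VLA-4 it was 5.72-fold (3.58 with normexp correction) and 4.23-fold above standard diet.

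Irf1, which interferon gamma induces, had levels of 3.30 on standard diet, 3.92 on HFD-IgG and 7.11 on anti-VLA-4. It stood apart on anti-VLA-4, 1.81-fold higher than on HFD-IgG and 2.15-fold higher than on standard diet (1.48 with normexp correction), with 1.19-fold between the other arrays. Stat2 had levels of 4.80, 4.51 and 7.05 and was 1.56-fold higher on anti-VLA-4 than on HFD-IgG. Irf9, its partner at the ISRE, had levels of 4.06, 6.19 and 7.38, 1.53-fold higher on HFD-IgG than on standard diet and 1.19-fold higher on anti-VLA-4 than on HFD-IgG. The log2 differences of anti-VLA-4 over HFD-IgG stayed positive with normexp correction, at 0.85 for Irf1, 0.74 for Stat2 and 0.48 for Irf9, and with quantile scaling, at 0.84, 0.62 and 0.23.

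The sensors of foreign nucleic acid had small differences by the probes used, the brightest of each gene. Zbp1, which binds nucleic acids in the Z form, had levels of 1.13 on standard diet, 2.38 on HFD-IgG and 2.23 on anti-VLA-4. By these probes it was the only sensor past the limit, at 2.11-fold for HFD-IgG over standard diet (1.44 with normexp correction). Ifih1 (encoding MDA5) had 1.89, 2.77 and 3.19, Ddx58 (RIG-I) 2.71, 3.44 and 3.85, and Dhx58 (LGP2) 0.646, 1.02 and 0.897. Their folds for HFD-IgG over standard diet were 1.47, 1.27 and 1.57, and on normexp correction that of Ddx58 turned to -0.20 in log2. The second probe of Ddx58 gave 1.09 in log2 where the first gave 0.34, past the limit of 2-fold. That of Zbp1, with 68.3% A or G bases, gave 1.78 where the first gave 1.08. The sizes for both genes thus depend on the probe.

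Among the remaining effectors, Ifi44 had the largest fold of the 39 for HFD-IgG over standard diet, a rank that Oas1a took with quantile scaling (10.6 against 9.26) and with normexp correction (6.14 against 5.16). Ifi44 had levels of 0.0354 on standard diet, 0.480 on HFD-IgG and 0.237 on anti-VLA-4. It was 13.6-fold higher on HFD-IgG than on standard diet (scanner error 0.32 in log2) and 2.02-fold lower on anti-VLA-4 than on HFD-IgG, the latter 1.87 with quantile scaling and 1.43 with normexp correction. Isg15, a ubiquitin-like protein attached to viral and host proteins whose window holds 3 overlapping ISRE matches, had levels of 3.38, 9.55 and 8.84, with 2.83-fold between HFD-IgG and standard diet. Usp18, the enzyme that removes ISG15 and damps the type I receptor, had 1.32, 2.81 and 2.74, with 2.12-fold. With normexp correction these were 1.87 and 1.54. Both genes differed by no more than 1.08-fold between the high-fat diet arrays.

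Xaf1, an antagonist of an apoptosis inhibitor, had levels of 0.239 on standard diet, 0.957 on HFD-IgG and 0.940 on anti-VLA-4, with 4.01-fold between HFD-IgG and standard diet. Rtp4, a chaperone of membrane receptors, had 1.93, 7.62 and 6.19, with 3.95-fold (2.55 with normexp correction). Samd9l, an antiviral restriction factor, had 0.886, 3.28 and 2.89, with 3.70-fold, and its other probe gave a log2 difference of 1.95 beside 1.89. These 3 genes had their lowest level on standard diet and were at most 1.23-fold apart between the high-fat diet arrays.

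Parp14, an ADP-ribosyltransferase, had levels of 1.18 on standard diet, 2.63 on HFD-IgG and 3.43 on anti-VLA-4. Rsad2, encoding viperin, which makes a chain-terminating nucleotide, had 0.774, 1.34 and 1.81. Both were highest on anti-VLA-4, 1.30-fold and 1.35-fold above HFD-IgG, and Rsad2 passed 2-fold only on anti-VLA-4 over standard diet, at 2.34. With normexp correction that was 1.71, and Parp14 was 1.70-fold higher on HFD-IgG than on standard diet where the main value was 2.23. Cmpk2, the neighbour of Rsad2 in the genome, had 0.257, 0.450 and 0.506. Its fold between HFD-IgG and standard diet was 1.75 by the probe used (2.39 with normexp correction), and its other probe gave 1.36 in log2. Bst2, encoding the virion tether tetherin, had 28.3, 34.0 and 31.0, and Ifi35 had 2.92, 3.72 and 3.23. These last genes lay within 1.28-fold on every pair of arrays, and the sign of their difference from the standard diet turned with normexp correction.

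**Figure D2:**
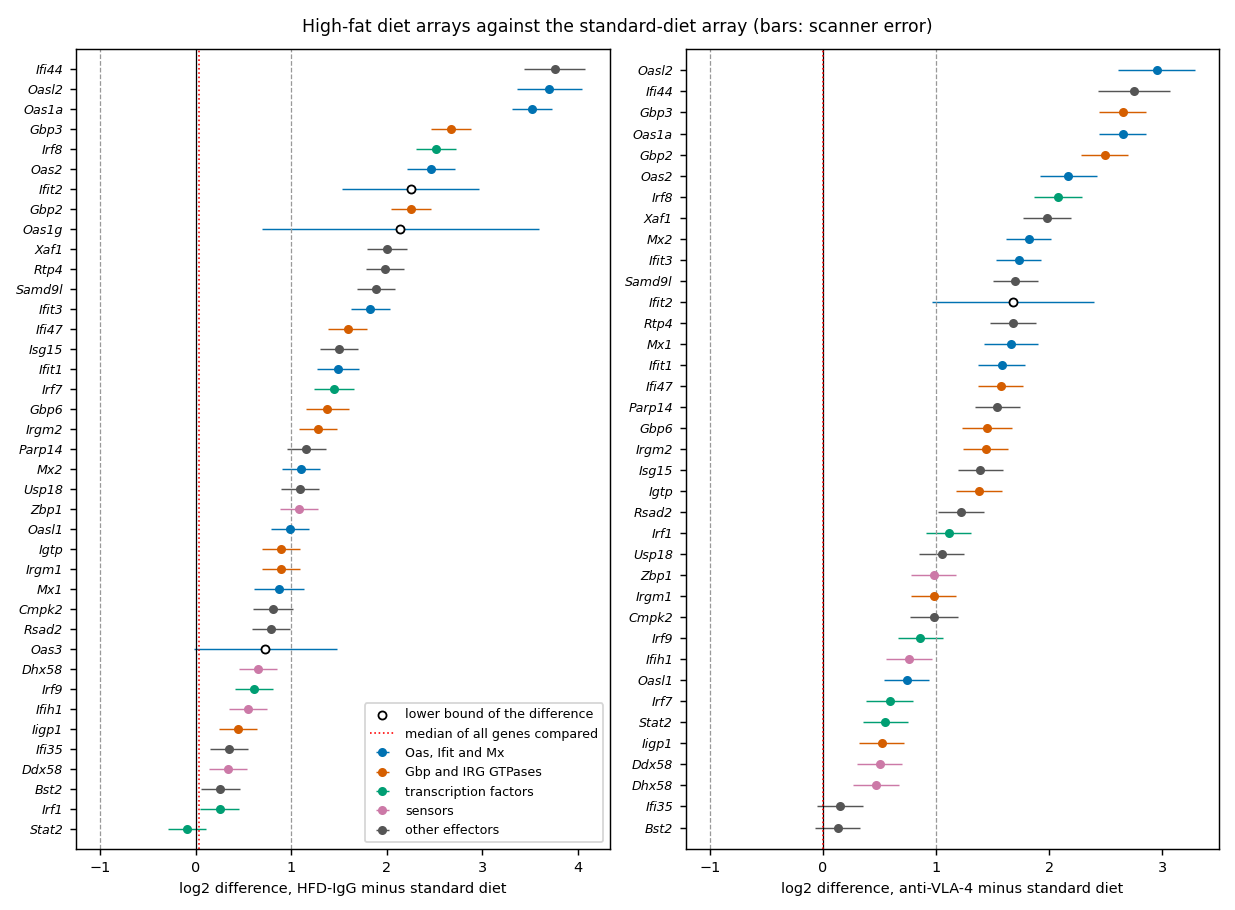
Log2 difference of each member for HFD-IgG minus standard diet (left, 39 genes) and anti-VLA-4 minus standard diet (right, 37 genes), coloured by role. Bars are the scanner's error, open points are lower bounds, dashed lines mark 2-fold and the red dotted line is the median of all genes compared. All members except Stat2 on the left lie above 0, although 5 on the left and 2 on the right turned with normexp correction.

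On anti-VLA-4 compared with standard diet, 24 of 37 members above background on at least 1 of these arrays were 2-fold or more higher and 0 lower, against 7.99% higher and 3.39% lower among 20298 genes. All 37 lay above 0, beside 49.9% of all genes, and of the 37 Bst2 and Ifi35 turned with normexp correction. Among bright genes 15 of 25 members were higher and 0 lower, against 3.34% and 1.55% of genes. The member median was 1.44 in log2 and that of all genes 0.0. With normexp correction they were 1.17 and 0.28, and 21 of 37 members and 30.3% of genes were higher. The largest folds were those of Oasl2 (7.74), Ifi44 (6.71), Gbp3 (6.28), Oas1a (6.27) and Gbp2 (5.63), which were 3.74, 3.62, 4.40, 4.48 and 3.41 with normexp correction. Diet, injection, antibody and slide all differ between these arrays and cannot be told apart, and the standard-diet array is the same one as before.

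Between the high-fat diet arrays the members had small differences in both directions. On anti-VLA-4, 17 members were higher and 22 lower than on HFD-IgG, with a median log2 difference of -0.02. Of all genes compared, 42.4% were higher, a share near that of the members. Oas1g and Ifi44 were at least 2-fold lower and 0 were 2-fold higher, against 16.5% lower and 1.9% higher among 22549 genes (median -0.06), a split that quantile scaling turned to 9.1% and 10.9%. Both calls ended with normexp correction and that of Ifi44 with quantile scaling, under which Mx1 was 2.21-fold higher. Among bright genes 0 of 27 members passed in either direction, against 0.806% higher and 1.3% lower. The differences of 22 members exceeded the scanner error, 10 of them higher and 12 lower. The share of all genes past that error was not computed, so this count has nothing to be read against.

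Besides Oas1g and Oas3, which give bounds, the genes lower on anti-VLA-4 than on HFD-IgG were led by Ifi44 (2.02-fold), Oas1a (1.83), Irf7 (1.82), Oasl2 (1.68), Ifit2 (1.48) and Irf8 (1.35). Those higher were led by Irf1 (1.81), Mx1 (1.72), Mx2 (1.64), Stat2 (1.56), Igtp (1.41) and Rsad2 (1.35). With normexp correction 13 members changed sign, Mx1 among these named genes, and with quantile scaling Ifit2 did. Endothelial and stellate cell markers were also lower on anti-VLA-4, 3 of 8 in each list by 2-fold or more (medians -0.85 and -0.94), the 12 Kupffer cell markers had a median of -0.43, and the neutrophil markers S100a8 and S100a9 were 4.09-fold and 4.62-fold higher, 2 of 6. Their part in these differences was not tested. Slide and antibody cannot be told apart here. Of the 39 members, 22 had their highest level on HFD-IgG, 17 on anti-VLA-4 and 0 on standard diet, beside 39.5%, 27.3% and 33.2% of 22931 genes.

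**Figure D3:**
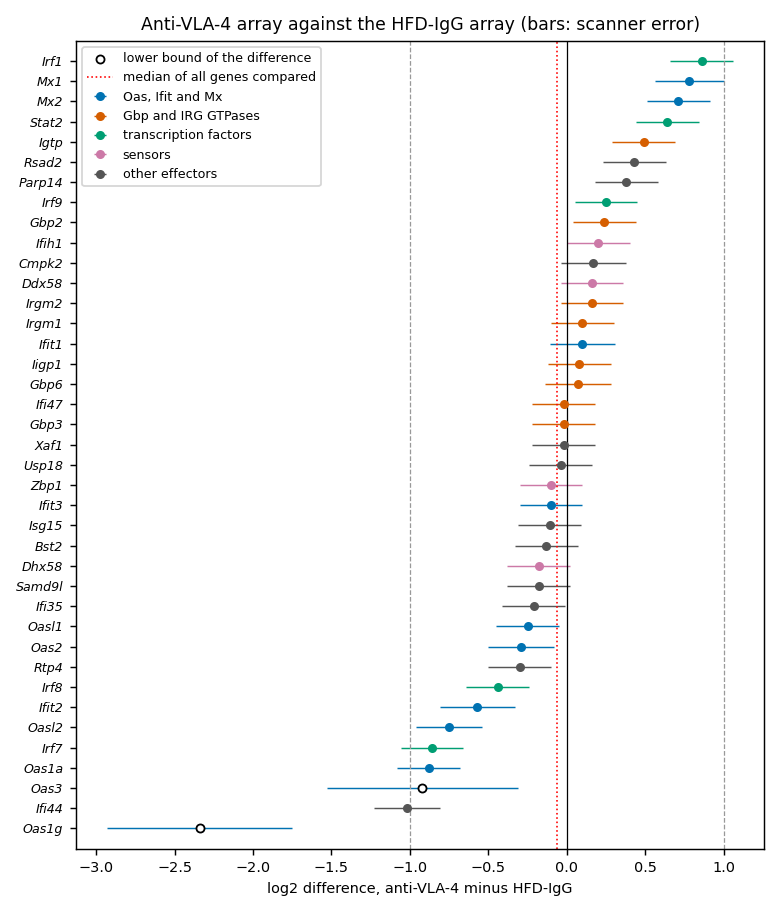
Log2 difference of each of the 39 members for anti-VLA-4 minus HFD-IgG, ordered by size and coloured by role, with the scanner's error as bars and open points for bounds. The 6 Oas genes lie below 0 (Oasl1 came to 0.00 with normexp correction and Oas3 with quantile scaling), the GTPases between -0.02 and 0.49, and Irf1, Mx1 (-0.11 with normexp correction), Mx2 and Stat2 at the higher end.

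The 11 type I-type genes and the 8 GTPases were set side by side, since these families differ in their main inducer. For HFD-IgG over standard diet, 8 of 11 type I-type genes and 5 of 8 GTPases were 2-fold or more higher, with medians of 1.83 and 1.33 in log2 and overlapping ranges of 0.73 to 3.70 and 0.44 to 2.67. The difference of the medians, 0.50, was 0.06 with quantile scaling, 1.06 with normexp correction and -0.72 among the 3 type I-type genes and 5 GTPases whose probes hold at most 50% purines, so the order of the families depended on the setting. For anti-VLA-4 over HFD-IgG the type I-type median was -0.29 and the GTPase median 0.09, a difference of -0.38 that lay between -0.23 and -0.56 in the alternatives. Within the type I-type genes the medians were -0.81 for Oas, -0.10 for Ifit and 0.75 for Mx, so the group median describes neither end. For anti-VLA-4 over standard diet the medians of the families were 1.73 and 1.45. With the GTPases held to the Gbp and Irgm genes alone, the differences for the comparisons in this order were 0.45, -0.39 and 0.28.

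The rest of the interferon pathway was described by role. Its counts stand beside shares of all genes of 20.4% higher and 2.42% lower for HFD-IgG over standard diet. For anti-VLA-4 over HFD-IgG the shares were 1.9% and 16.5%, and for anti-VLA-4 over standard diet 7.99% and 3.39%. Of 15 interferon genes on the array, Ifnb1, Ifng, Ifna4 and Ifne were above background on no array. Of 11 compared, Ifna2 and Ifna11 were at least 6.80-fold and at least 4.75-fold higher on HFD-IgG than on standard diet, and 0 were lower. Their levels on HFD-IgG were 0.175 and 0.122, and the scanner errors of these differences 0.63 and 0.48 in log2. These calls were 2 of 11, a share near that of all genes, and the median log2 difference of the list was 0.03. On anti-VLA-4 compared with HFD-IgG, Ifna14 was 2.77-fold higher, Ifna2 at least 7.79-fold lower, Ifna11 3.85-fold lower and Il28b 2.16-fold lower. That was 1 of 11 higher and 3 of 11 lower, with a median log2 difference of 0.01. Ifna7 was 2.07-fold lower on anti-VLA-4 than on standard diet, 1 of 10 compared. Probes of the Ifna family may not separate its members.

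Ifnar1, a chain of the type I receptor, had levels of 2.38 on standard diet, 1.56 on HFD-IgG and 2.10 on anti-VLA-4. Ifngr1, a chain of the interferon gamma receptor, had 1.49, 2.04 and 2.31, and both genes stayed under 2-fold between any arrays. Of 11 upstream sensors and adaptors, Tmem173, encoding STING, was 2.10-fold higher on HFD-IgG than on standard diet, and Irf5 was 2.10-fold lower on anti-VLA-4 than on HFD-IgG. Among 7 negative regulators, Socs1, an inhibitor of JAK kinases, had levels of 0.0316, 0.111 and 0.0956 and was 3.50-fold higher on HFD-IgG than on standard diet. Socs3, which interleukin-6 induces, had 1.24, 0.744 and 2.93 and was 3.94-fold higher on anti-VLA-4 than on HFD-IgG.

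Further GBP and IRG genes outside the 39 were mostly higher on the high-fat diet arrays than on the standard-diet array. Of 8 compared, 6 were 2-fold or more higher on HFD-IgG than on standard diet and 0 lower (median 1.98 in log2): Gvin1 (7.30-fold), Gbp4 (at least 6.23), Tgtp2 (4.96), Gbp9 (4.16), Gbp5 (at least 3.74) and Gbp1 (at least 3.08, scanner error 1.45 in log2). Between the high-fat diet arrays 0 of 8 were 2-fold different, with Gbp9 1.80-fold lower on anti-VLA-4. Of 5 further Oas genes, 3 were higher on HFD-IgG than on standard diet, Oas1f at 9.44-fold, Oas1e at least 2.93-fold and Oas1c at 2.32-fold. On anti-VLA-4 compared with HFD-IgG, 4 of these 5 lay below 0 (median -0.83) and 0 were 2-fold lower. Of all genes in that comparison, 42.4% lay above 0.

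Of 10 targets of interferon gamma that are no GTPases, 7 were 2-fold or more higher on HFD-IgG than on standard diet and 0 lower (median 1.20 in log2). The chemokine Cxcl9, which draws T cells, had levels of 0.273 on standard diet, 1.77 on HFD-IgG and 1.58 on anti-VLA-4, a 6.49-fold difference between the first pair. Cxcl10, another ligand of the same receptor, had 0.481, 1.69 and 2.46, with 3.51-fold. Cd274, encoding PD-L1, was at least 3.46-fold higher, Tap1 2.25-fold and the immunoproteasome genes Psmb8, Psmb9 and Psmb10 2.40-fold, 2.36-fold and 2.05-fold. On anti-VLA-4 compared with HFD-IgG, 0 of 10 were 2-fold higher and 2 were lower, beside 1.9% and 16.5% of all genes. Ciita was 3.29-fold lower and Cxcl11 2.59-fold lower. The Cxcl11 probe had levels of 298 on standard diet, 281 on HFD-IgG and 108 on anti-VLA-4, far above those of Cxcl9 and Cxcl10. Whether that probe measures Cxcl11 alone was not tested.

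The base composition of a probe went with its difference on these arrays. Over all genes the median log2 difference of HFD-IgG over standard diet was -0.11 where the probe was made up of A or G, the purines, to at most 40%, and 0.86 where it held over 60%. For anti-VLA-4 over HFD-IgG these medians were 0.10 and -0.85. The members' probes held 36.7% to 71.7% purines. Of 20 members with at most 50% purines, 11 were 2-fold or more higher on HFD-IgG than on standard diet (median 1.08), and of 19 with more, 12 (median 1.45). Over all genes 11% of 11042 with at most 50% purines were higher. With 50% to 60% purines 9 of 14 members and 23.1% of genes were higher, and with over 60% 3 of 5 members and 46.9% of genes, a share near the members'. Ifi44 had the highest share, 71.7%, and its log2 difference of -1.02 between the high-fat diet arrays lay near the median of its class, -0.85. Mx2, at 65.0%, lay at 0.71 in that class. Oas1a, at 51.7%, lay at -0.88 where the class from 50% to 60% had a median of -0.14. The part of base composition in single genes was not tested.

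**Figure D4:**
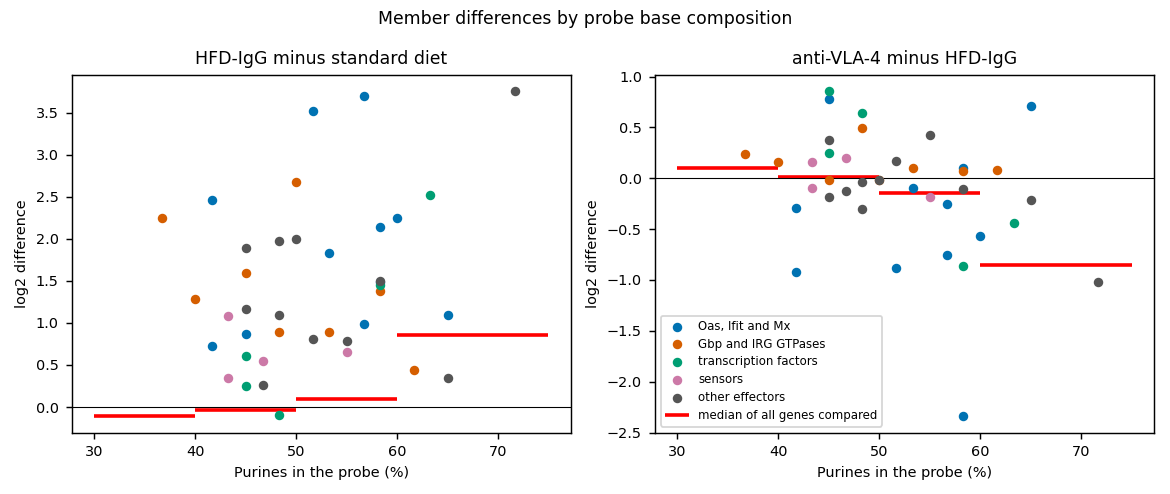
Log2 difference of each member against the share of purines (A or G) in its probe, for HFD-IgG minus standard diet (left) and anti-VLA-4 minus HFD-IgG (right), coloured by role. Red lines are the medians of all genes compared with probes of up to 40%, 40% to 50%, 50% to 60% and over 60% purines. On the left all 20 members with at most 50% purines but Stat2 lie above 0, and of all 38 members above 0 there 5 turned with normexp correction.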

How the data were processed

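The members and lists were chosen with earlier results of these data known. Per the submitters' processing notes, the deposited intensities came from version 11.0.1.1 of Agilent Feature Extraction, with background subtraction and detrending (per the file headers; build mm9). A deposited value table gives a linear ratio: the processed signal over the array's 75th percentile, reproduced within 2e-08 for 23206 spots. Its columns left 0 unmatched. Flags are other values of the scanner software, per the file headers.

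The 75th percentile over 43020 non-control spots was 573.7 (standard diet), 500.3 (HFD-IgG) and 513.7 (anti-VLA-4). Log2 values were averaged over a probe's spots, without spots flagged on any array, and each gene name took its brightest probe (13 members had more than 1). Comparison required a signal well above background on either array. A dim array entered at the higher of its own level and the lowest level well above background (0.0257, 0.0315 and 0.0224). Of the members' accessions 37 matched RefSeq, 36 with the array's symbol. All 39 members are reported, with full levels for those 2-fold different, and pathway genes are named when 2-fold different (1 list is not reported here beyond its receptors Ifnar1 and Ifngr1). The number of arrays limits the precision. The steps were tested on simulated data with changes planted in genes well above background. That test held no bounds and no shift between arrays, so it says nothing about either. Software was Python 3.11.15 with numpy 2.4.6, pandas 2.3.3 and matplotlib 3.10.9, and R 4.3.3 with limma 3.58.1. The alternatives were quantile scaling, bright-probe medians, normexp (offset 50), averaging over probes, other filters, the deposited table, a 1.5-fold limit and, after seeing the data, a limit of 50% purines.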

Additional observations from a re-analysis of the deposited data

How the results depend on the processing

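No replicate could be left out and no paired analysis was possible because each group has 1 array. The counts of members at least 2-fold higher on HFD-IgG and on anti-VLA-4 than on the standard diet stayed within 1.5 times in the alternatives over all members, and 0 were 2-fold lower in any. Among the members with probes of at most 50% purines they were 11 of 20 and 13 of 19, because fewer were compared. The member median of anti-VLA-4 over standard diet moved to 1.17 with normexp correction. The type I-type median minus the GTPase median for HFD-IgG over standard diet was 0.06 with quantile scaling, 1.06 with normexp correction and -0.72 with probes of at most 50% purines, and the cause was not tested. For anti-VLA-4 over HFD-IgG, members at least 2-fold higher were 1 with quantile scaling, 1 with the mean over probes and 4 at the 1.5-fold limit. Members 2-fold lower were 1 with quantile scaling, the mean over probes, genes above background on both arrays or the deposited table, 0 with normexp or at most 50% purines, and 6 at 1.5-fold. Dim genes limit the precision, since Oas1g, Oas3 and Ifit2 give bounds.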

Other observations

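Genes outside the 39 whose RefSeq promoter held the ISRE pattern were described as well, a choice made after seeing the data. On anti-VLA-4 over standard diet, 61 of 376 such genes (16.2%) were at least 2-fold higher, against 8.28% of 9965 genes without the pattern. For HFD-IgG over standard diet it was 97 of 398 (24.4%) against 18.7% of 10657, and for anti-VLA-4 over HFD-IgG 11 of 411 (2.68%) against 1.57% of 10876, with 57 of 411 (13.9%) lower against 14.0%. The brightness of the genes with and without the pattern was not matched.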
